A study of Mus musculus with 2 samples.

Results

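Granulosa cells that carried transcripts of the chemokines Cxcl1, Cxcl10 and Cxcl5 were examined in ovaries of CD1 mice at postnatal day 2. The cells were chosen by their counts. A cell had to carry at least 3 of the granulosa genes Foxl2, Fst, Wnt6, Kitl, Inha, Irx3 and Kctd14, fewer than 3 of the growing-follicle genes Amh, Inhbb, Hsd3b1, Kazald1, Slc18a2 and Tnni3, and at least 3 unique molecular identifiers (UMIs, each a captured transcript) of the 3 chemokines together. Limits on Col1a2 and Dcn, on Ddx4, Dazl and Ooep, and on Upk3b kept out interstitial, germ and mesothelial cells. In all, 390 cells met these limits, 294 in replicate 1 and 96 in replicate 2, of 8202 cells kept for analysis and 8941 deposited. They were compared with 622 chemokine-negative granulosa cells (390 and 232) that met the same limits but carried 0 UMIs of the 3 chemokines.

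The data are 2 droplet single-cell RNA libraries of untreated whole ovaries from female mice, and both groups of cells come from each library. No mouse was treated or carried a transgene. Each library pooled the ovaries of several pups of a single female, dissociated with collagenase IV and then with Accumax, so that the libraries are the replicates (n = 2) and pups within a library cannot be told apart. Replicate 1 held 4094 cells with 54471790 UMIs and replicate 2 held 4847 cells with 59074480 UMIs, and 21 cell barcodes occurred in both libraries, 1 of them among the 390 cells. The chemokine-expressing cells had a median of 8725 and 12709 UMIs in replicates 1 and 2, against 8013.5 and 7239.5 in the chemokine-negative cells. Their median mitochondrial share was 4.48% and 5.36%, against 4.15% and 4.66%.

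Granulosa cells are the somatic support cells of the follicle. Chemokines are small secreted proteins that direct the movement of leukocytes: Cxcl1, Cxcl2 and Cxcl5 act on the neutrophil receptor Cxcr2, and Cxcl10 acts on Cxcr3 of T cells and natural killer cells. Their genes are textbook targets of NF-kB, a family of dimeric transcription factors (Rela, Relb, Rel, Nfkb1 and Nfkb2) held inactive by inhibitors such as Nfkbia. NF-kB in turn induces its own inhibitors, Nfkbia and Tnfaip3 among them, which limit the response. Cxcl10 is also induced by interferons through interferon-stimulated response elements (ISRE). Immediate-early genes, such as Fos and Egr1, are switched on within minutes by growth factors, by injury and by enzymatic dissociation of tissue.

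The promoters of Cxcl1 and Cxcl10, of the neighbouring chemokine gene Cxcl2 and of the NF-kB inhibitor gene Nfkbia are shown for reference. Cxcl5, which also chose the cells, had no entry in the promoter reference used. The lines below give the 250 bases before the RefSeq start site (GRCm38.p6), 5′ to 3′ on the strand of the gene, and cover chr5:90890995-90891244 (plus strand) for Cxcl1, chr5:90903649-90903898 (plus strand) for Cxcl2, chr5:92348890-92349139 (minus strand) for Cxcl10 and chr12:55492648-55492897 (minus strand) for Nfkbia. Capitals mark matches to the NF-kB (kappaB) consensus on either strand, to the AP-1 motif TGANTCA and to an ISRE core of a pair of GAAA runs parted by 2 bases.
Cxcl1: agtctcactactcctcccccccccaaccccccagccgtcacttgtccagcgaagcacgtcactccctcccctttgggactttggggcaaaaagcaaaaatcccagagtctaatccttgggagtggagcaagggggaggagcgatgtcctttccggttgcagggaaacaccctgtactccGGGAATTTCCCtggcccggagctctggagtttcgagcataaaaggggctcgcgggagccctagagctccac
Cxcl2: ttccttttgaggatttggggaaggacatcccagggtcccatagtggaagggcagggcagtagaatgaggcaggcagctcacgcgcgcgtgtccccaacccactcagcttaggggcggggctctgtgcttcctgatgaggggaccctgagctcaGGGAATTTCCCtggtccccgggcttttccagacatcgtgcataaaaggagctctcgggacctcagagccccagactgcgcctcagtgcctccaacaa
Cxcl10: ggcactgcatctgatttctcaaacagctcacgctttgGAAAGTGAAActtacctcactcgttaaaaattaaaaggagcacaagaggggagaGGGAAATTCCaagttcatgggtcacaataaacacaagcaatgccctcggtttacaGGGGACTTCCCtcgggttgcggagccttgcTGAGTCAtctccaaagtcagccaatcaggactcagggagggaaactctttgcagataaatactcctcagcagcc
Nfkbia: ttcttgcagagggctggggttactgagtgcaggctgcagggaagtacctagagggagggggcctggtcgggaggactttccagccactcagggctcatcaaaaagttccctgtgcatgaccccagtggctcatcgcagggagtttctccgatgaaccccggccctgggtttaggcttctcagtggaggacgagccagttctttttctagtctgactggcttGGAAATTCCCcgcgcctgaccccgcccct
Cxcl1 and Cxcl2 held the same 11 capital letters, from base 71 to 61 and from base 97 to 87 before the start, where a kappaB match on each strand overlaps the other. Cxcl10 held kappaB matches from base 159 to 150 and from base 104 to 94, an AP-1 match from base 74 to 68 and the ISRE core from base 213 to 204. In Nfkbia, the kappaB match lay from base 29 to 20. Of 32851 promoter windows of this length, 7.25% held a kappaB match, 6.75% an AP-1 match and 2.98% the ISRE core. A match is a description of letters, not evidence of binding.

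Cxcl1 and Cxcl10 made up nearly all chemokine UMIs of the chosen cells. These values are the basis of the choice and are given without a test. The cells carried a median of 26 chemokine UMIs in replicate 1 (lowest 3, highest 177) and 12 in replicate 2 (lowest 3, highest 140). Cxcl1 gave 56.6% and 64.5% of these UMIs and was seen in 92.9% and 94.8% of the cells. Cxcl10 gave 41.6% and 34.5% and was seen in 81.6% and 70.8%. Cxcl5 gave 1.83% and 0.929%, was seen in 59 of 294 and 10 of 96 cells, and occurred in 0 cells without Cxcl1. Both Cxcl1 and Cxcl10 were present in 219 of 294 and 63 of 96 cells, while 21 and 5 cells carried Cxcl10 without Cxcl1. Just inside the limit, 20 and 11 cells carried exactly 3 chemokine UMIs, and just outside it 30 and 14 carried exactly 2. The bins of many UMIs were fuller in replicate 1, where 74 cells carried 40 to 79 and 28 carried 80 or more, than in replicate 2, where 8 and 6 did.

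**Figure D1:**
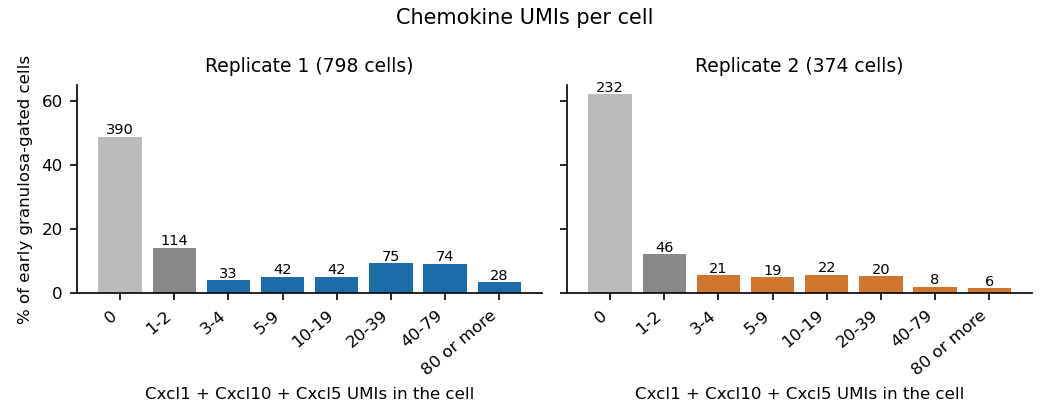
Summed Cxcl1, Cxcl10 and Cxcl5 UMIs per cell (x axis, in bins) among granulosa-gated cells with fewer than 3 growing-follicle genes, as a percentage of the 798 and 374 such cells of replicates 1 and 2 (y axis), with the number of cells above each bar. Grey bars are cells with 0 (390 and 232) or with 1 or 2 UMIs (114 and 46), and coloured bars are the chosen cells.

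The chosen cells were 18.2% of the 1616 granulosa-gated cells of replicate 1 (exact 95% interval 16.3 to 20.2) and 17.0% of the 565 of replicate 2 (14.0 to 20.4), a mean of 17.6% ± 0.849 (SD, n = 2). Intervals cover counting error only. Among granulosa-gated cells with fewer than 3 growing-follicle genes, they were 36.8% of 798 and 25.7% of 374 cells. Chemokine UMIs were not particular to the granulosa gate. When each cell was thinned to 4000 UMIs, 23.9% and 15.8% of all granulosa-gated cells had 3 or more chemokine UMIs (31.8% and 23.7% before thinning), beside 25.3% and 21.0% of mesothelial-gated cells (55.4% and 44.1%), 27.3% and 36.0% of endothelial-gated cells (58.2% and 38.9%), 25.9% and 8.89% of immune-gated cells (38.9% and 17.5%), 11.1% and 4.69% of interstitial-gated cells (17.2% and 6.15%) and 0% and 1.44% of germ-gated cells (3.28% and 4.57%). Thinning keeps the smallest part of the UMIs of the germ cells, which were the deepest, so their thinned share is lowered by construction and is no background for the other gates. Thinning left out 23 and 32 granulosa-gated, 0 and 9 mesothelial-gated, 1 and 11 endothelial-gated, 9 and 18 immune-gated, 80 and 672 interstitial-gated and 17 and 255 germ-gated cells. Unthinned germ cells, which should lack these transcripts, stand here for the background of free RNA, at 3.28% (exact 95% interval 1.43 to 6.36) and 4.57% (3.24 to 6.24). They had a median of 76878 and 35632.5 UMIs, against 9880.5 and 9569 in granulosa-gated cells. Cxcl5 was seen, unthinned, in 9.47% and 3.89% of granulosa-gated cells, in 1.63% and 0.662% of interstitial-gated cells and in 0.820% and 0.864% of germ-gated cells.

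**Figure D2:**
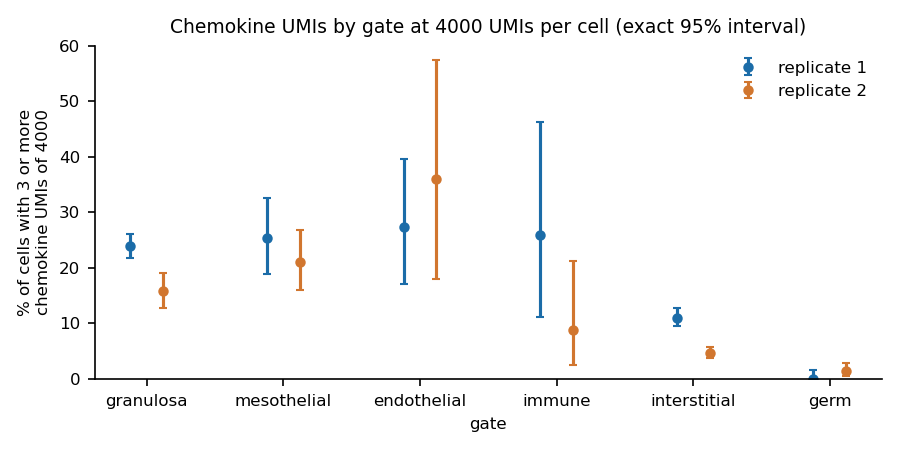
Percentage of cells of each gate with 3 or more UMIs of Cxcl1, Cxcl10 and Cxcl5 together (y axis) after every cell was thinned to 4000 UMIs, for replicate 1 (blue) and replicate 2 (orange), with exact 95% intervals. Granulosa cells lie at 23.9% and 15.8%, and germ cells, of whose UMIs thinning keeps the smallest part, at 0% and 1.44% (3.28% and 4.57% before thinning).

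The markers Egr3 and F3, by which these cells were proposed, are also given without a test. Egr3, an immediate-early transcription factor, stood at 64.5 and 78.6 CPM (UMIs scaled to a common library size, normalized by TMM) in the chemokine-expressing cells of replicates 1 and 2 and at 32.5 and 14.9 in the chemokine-negative cells. F3, tissue factor, the starter of the extrinsic coagulation pathway, stood at 153 and 117 CPM against 60.1 and 22.4. Both genes were higher in the expressing cells of each library. Scaled to the total UMIs of each gate, F3 reached 76.1 and 67.3 CPM in mesothelial-gated cells and 19.1 and 11.2 in interstitial-gated cells, and Egr3 reached 16.4 and 26.8 CPM in endothelial-gated cells.

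To ask which other genes went with the chemokines, UMIs were summed over the cells of each group and library and tested with edgeR over 10771 genes. A gene was called at a Benjamini-Hochberg adjusted p under 0.05 and a change of at least 1.5-fold. Without a term for library, 1 gene was called higher (0.00928% of those tested) and 0 were called lower (0%), while 527 had an unadjusted p under 0.05. The called gene was Cxcl1, which had chosen the cells. DESeq2 in the same design called 27 genes higher and 0 lower. Both groups of cells come from the same libraries, and the fit with the library as a block, which compares them within a library, called 285 genes higher (2.65%) and 73 lower (0.678%). Outside the genes that chose or marked the cells, 280 were called higher and 71 lower. Of these 280, 13 passed the filter on low counts through the expressing cells alone, so their calls are no support. They are included in the 285 and the 280. DESeq2 with that block called 44 higher and 2 lower, all of them among the 358. Of the edgeR calls, 187 of 285 were at least 1.5-fold higher in each library and 40 of 73 at least 1.5-fold lower in each. All calls named from here on were made by edgeR with the library as a block. The lowest adjusted p of any of these genes without the block was 0.0563. The blocked fit has 1 residual degree of freedom per gene and leans on the spread shared across genes, so the values of each library are given first.

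Most of the tested genes of NF-kB itself and of its inhibitors were called higher in the chemokine-expressing cells. Of 20 such genes listed, 16 had enough counts to be tested, 11 were called higher and 0 lower. Without Tnfaip3 and Bcl3, which passed the filter on low counts through the expressing cells alone, 9 were called higher. The median log2 fold change, with Tnfaip3 and Bcl3 included, was 1.65, against 0.00 over all 10736 genes tested outside the choice. Nfkbia, the inhibitor that holds NF-kB dimers in the cytoplasm, stood at 784 and 449 CPM in the expressing cells of replicates 1 and 2 and at 85.1 and 89.4 in the negative cells. Its log2 fold change was 2.78 ± 0.13 (SE of the blocked fit), with 3.20 and 2.32 within replicates 1 and 2. Each SE of a log2 fold change given here comes from that fit, which leans on the spread shared across genes. It does not measure the spread between the 2 libraries. Tnfaip3, a ubiquitin-editing enzyme that ends NF-kB signals, stood at 105 and 59.5 CPM against 3.20 and 1.49. Nfkbiz, a nuclear co-activator of the family, stood at 77.4 and 84.0 CPM against 14.2 and 11.9, a log2 fold change of 2.57 ± 0.17. For each of these genes, the lower of the 2 expressing values lay above the higher of the 2 negative values.

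Among the DNA-binding subunits, Relb rose from 8.72 and 14.4 CPM in the negative cells to 55.4 and 40.4 in the expressing cells. Nfkb1 rose from 20.3 and 24.8 to 88.5 and 56.5 CPM, and Rel rose from 21.5 and 11.9 to 63.9 and 36.6 CPM. Rela, the main activating subunit, rose less, from 70.6 and 56.6 to 107 and 96.9 CPM, a log2 fold change of 0.67 ± 0.13. Bcl3, a nuclear member of the inhibitor family, was called at low counts, with 9.76 and 5.34 CPM against 1.74 and 0.497. Map3k8, a kinase upstream of the MAP kinases, was called on replicate 1, where it stood at 27.4 against 4.94 CPM, whereas the groups were at 9.16 and 8.45 CPM in replicate 2. Nfkb2 was called too and, like Map3k8, was not at least 1.5-fold higher in each library. Ikbkb, Cyld, Nfkbib, Nfkbie and Tnip2 were tested and not called.

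**Figure D3:**
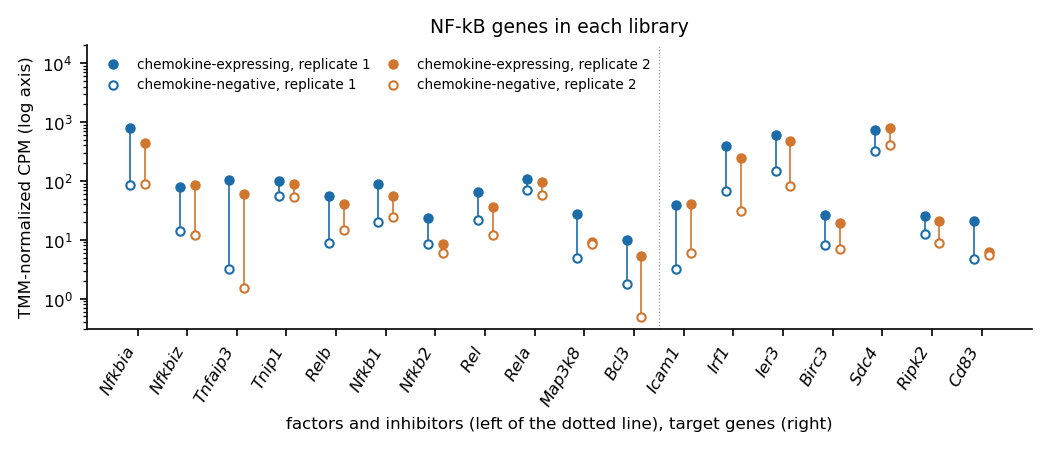
TMM-normalized CPM (log axis) of NF-kB factors, inhibitors and target genes in chemokine-expressing (filled) and chemokine-negative (open) granulosa cells of replicate 1 (blue) and replicate 2 (orange), joined by a line within a library. Filled points lie above open points in both libraries for each gene shown, and the gap is small in replicate 2 for Map3k8 (9.16 and 8.45 CPM) and Cd83 (6.11 and 5.47 CPM).

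Of 36 listed NF-kB target genes, 19 were tested, 8 were called higher and 0 lower (7 without Vcam1, which passed the filter through the expressing cells alone). The median log2 fold change over the 19, Vcam1 included, was 0.38. Icam1, a leukocyte adhesion molecule, stood at 39.7 and 40.4 CPM in the expressing cells against 3.20 and 5.96 in the negative cells, a log2 fold change of 3.23 ± 0.27. Vcam1, another adhesion molecule, had 82 and 14 UMIs in the expressing cells and 0 and 1 in the negative cells. Irf1, a transcription factor that both NF-kB and interferon induce, rose from 66.5 and 30.3 to 387 and 247 CPM, a log2 fold change of 2.72 ± 0.11. Ier3 rose from 148 and 81.0 to 608 and 479 CPM. Sdc4, Birc3, Ripk2 and Cd83 completed the genes called higher, while Sod2, Nos2, Traf1, Traf2 and 7 others were not called. The other 17 genes had too few counts. Among them, Il6 and Il1b had 0 UMIs in the expressing cells of both libraries, which allows up to 0.942 and 2.20 CPM, and Tnf had 7 and 2 UMIs.

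Of the chemokines that did not choose the cells, 7 of 24 in the files were tested and 2 were called, both higher. Cxcl2 had 582 and 75 UMIs in the expressing cells against 2 and 3 in the negative cells. Ccl20, which attracts cells that carry Ccr6, had 29 and 6 UMIs against 1 and 0. Cxcl2, Ccl20, Ccl1, Vcam1, Tnfaip3 and Bcl3 passed the filter on low counts through the expressing cells alone (both negative values under 3.84 CPM), so they could be tested only because they were high there, and their calls are no support. Ccl1, a chemokine outside the list, was among the 10 highest genes at 22.7 and 18.3 CPM against 3.20 and 1.99. Ccl2, the monocyte chemokine, had 2 and 12 UMIs in the expressing cells and was under the filter, whereas the 36 and 63 immune-gated cells held 138 and 145. Ackr3, a scavenging receptor for Cxcl12, fell from 29.1 and 14.9 to 13.9 and 8.40 CPM. The other genes among the 10 highest were Rnd1, a small GTPase (59.5 and 79.4 against 9.88 and 6.46 CPM), H2-M2, a non-classical histocompatibility gene (106 and 42.0 against 13.4 and 6.96 CPM), and Gm12840 (38.7 and 34.3 against 3.20 and 8.94 CPM).

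Cytokine and Toll receptor genes gave 3 higher and 0 lower calls among 17 tested, with a median log2 fold change of 0.18. Cd14, the co-receptor for bacterial lipopolysaccharide, rose from 9.30 and 3.97 to 20.8 and 19.1 CPM, and Tnfrsf12a and Il6st rose as well. Tnfrsf1a, the main TNF receptor, stood at 55.4 and 83.2 CPM against 66.8 and 88.4 and was not called. Acute phase and complement genes gave 3 higher calls among 6 tested: Socs3 (152 and 178 against 101 and 54.7 CPM), Stat3 (144 and 156 against 78.1 and 45.2 CPM) and Serpina3g.

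The levels of Nfkbia and Tnfaip3 were also followed over the number of chemokine UMIs per cell. The bins are of the UMIs that chose the cells, and both genes were called between their ends, so the values are a description of the contrast and no support for it. They are means over cells thinned to 4000 UMIs that share 2 libraries. Mean Nfkbia UMIs per thinned cell were 0.371 and 0.377 at 0 chemokine UMIs, 0.487 and 0.615 at 1 or 2, 1.11 and 0.487 at 3 to 9, 3.04 and 2.31 at 10 to 29, and 5.39 and 4.29 at 30 or more. Mean Tnfaip3 UMIs were 0.0186 and 0.00465 at 0 and 0.748 and 0.667 at 30 or more. In replicate 2, Nfkbia was thus lower just over the limit of 3 chemokine UMIs than just under it.

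**Figure D4:**
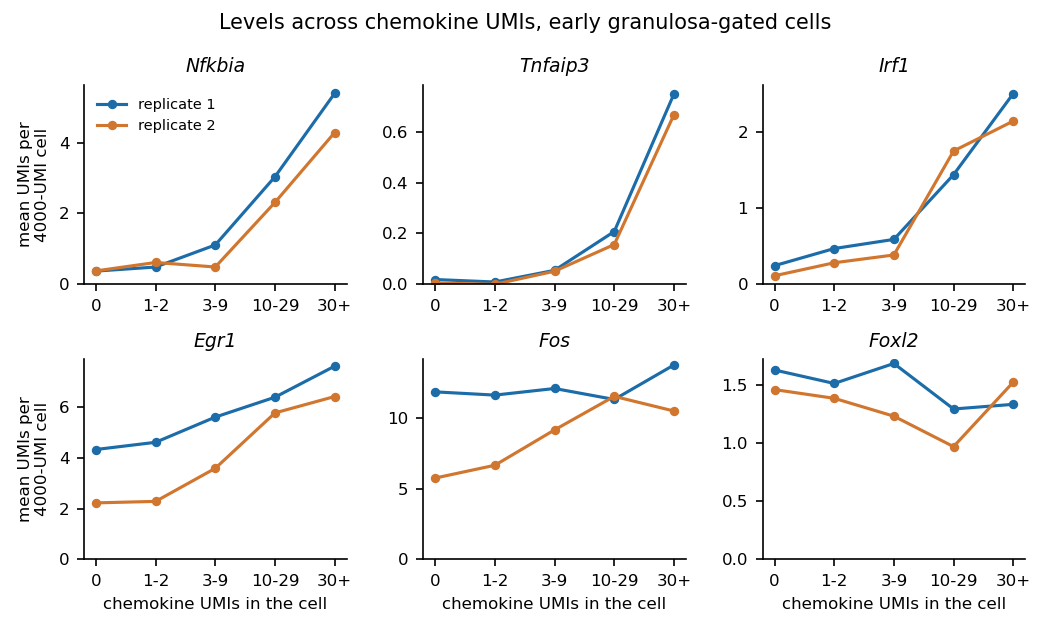
Mean UMIs per cell thinned to 4000 UMIs (y axis) of 6 genes across bins of Cxcl1, Cxcl10 and Cxcl5 UMIs (x axis) in early granulosa-gated cells of replicate 1 (blue) and replicate 2 (orange). Nfkbia went from 0.371 and 0.377 to 5.39 and 4.29, while Fos went from 11.9 and 5.76 to 13.8 and 10.5.

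Many of the tested immediate-early genes were called higher as well. Of 22 immediate-early transcription factors tested, 14 were called higher and 0 lower (median log2 fold change 0.75), and of 28 other immediate-early genes 18 were called higher and 0 lower (median 0.71). Of these calls, 9 of 14 and 10 of 18 were at least 1.5-fold higher in each library, as were 9 of the 11 calls among NF-kB factors and inhibitors. Tnfaip3 and Bcl3, which passed the filter on low counts through the expressing cells alone, were among the NF-kB calls so counted. Some lists share genes, so their counts are not separate. Ier3 counts as an immediate-early gene and as an NF-kB target gene. Irf1 counts as an NF-kB target and an interferon response gene, and Cebpb as a stress and an ovulation gene. Egr1 rose from 1095 and 584 to 1746 and 1323 CPM, Junb from 1181 and 450 to 1952 and 1507 CPM, and Maff from 78.4 and 16.4 to 162 and 128 CPM. Gadd45b, a stress and NF-kB response gene, rose from 54.3 and 64.6 to 294 and 222 CPM, a log2 fold change of 2.15 ± 0.11, and Zfp36, which destabilises cytokine mRNAs, rose from 286 and 143 to 706 and 556 CPM. Fos and Jun, the founding subunits of AP-1, stayed under the 1.5-fold limit over both libraries. Fos was at 3114 and 2485 CPM against 2889 and 1329, and Jun was at 1933 and 1332 against 1763 and 885, so that replicate 2 alone passed 1.5-fold for either gene. Within replicate 2, where the negative cells were lower in Maff, its log2 fold change was 2.95, beside 1.05 in replicate 1. Bhlhe40, a clock-linked repressor, had 1.94 and 1.42, and Nr4a2, an orphan nuclear receptor, had 2.71 and 1.28 on 2 and 13 UMIs in the negative cells.

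Other stress genes gave fewer calls. Of 19 heat shock and chaperone genes, 2 were called higher, Dnajb1 (290 and 278 against 225 and 110 CPM) and Dnajb4 (218 and 137 against 147 and 65.6 CPM), and 0 lower, with a median log2 fold change of 0.01 and 9 genes at an unadjusted p under 0.05. Hspa1a, the inducible heat shock protein 70, was at 68.9 and 98.5 CPM against 108 and 68.1, in opposite directions in the 2 libraries. Genes of the integrated and unfolded protein stress responses gave 4 higher calls and 1 lower among 15 tested, with a median log2 fold change of 0.29 and 10 genes at an unadjusted p under 0.05. The higher genes were Atf4, Cebpb, Ddit3 and Sdf2l1, and 0 of these 4 calls, like 0 of the 2 heat shock calls, were at least 1.5-fold in each library. Cebpb was called on replicate 2, with 136 against 58.1 CPM, beside 62.0 and 57.8 in replicate 1. The lower gene was Asns, which fell from 53.5 and 36.8 to 35.3 and 21.4 CPM. Of 13 oxidative stress genes tested edgeR called 0, with 4 at an unadjusted p under 0.05, and of 12 p53 targets Cdkn1a rose (25.9 and 9.94 to 63.3 and 64.9 CPM).

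Immediate-early and heat shock genes are also raised by tissue dissociation, and their share of the transcripts moved with the chemokines. The 74 genes of these lists include Ier3, also listed as an NF-kB target gene, and the marker Egr3. Together the 74 took a median of 3.55% and 2.87% of UMIs in the expressing cells. They took 2.49% and 1.96% in cells with 1 or 2 chemokine UMIs and 2.32% and 1.47% in the negative cells. Only 42 of 294 and 4 of 96 expressing cells lay at or under the median of the negative cells of their library. Both groups were then limited to cells with a stress share of 2 to 4% (164 and 68 expressing, 145 and 57 negative cells). Of 14 tested NF-kB factors and inhibitors, 9 were called higher, with a median log2 fold change of 1.36. Tnfaip3, which passed the filter on low counts in the main fit through the expressing cells alone, was among the 9. Of 21 immediate-early transcription factors, 7 were called higher, with a median of 0.20. The window is set on the immediate-early and heat shock genes themselves, so it lowers their differences by construction, and their median is not to be set against that of the NF-kB genes. In this window, Col3a1 of the interstitial markers, Kdr of the endothelial markers and Hba-a1 and Hbb-bs of the erythroid markers were also called higher. Of antigen presentation genes 3 of 15 were called lower, as were 3 of 10 early granulosa substate genes. Over all 8940 genes tested there outside the choice, 144 were called higher and 70 lower. The cells at or under the negative median were too few in replicate 2 (4 expressing cells, under the minimum of 20) to describe the lists. The part of the dissociation in the chemokine transcripts themselves was not tested.

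**Figure D5:**
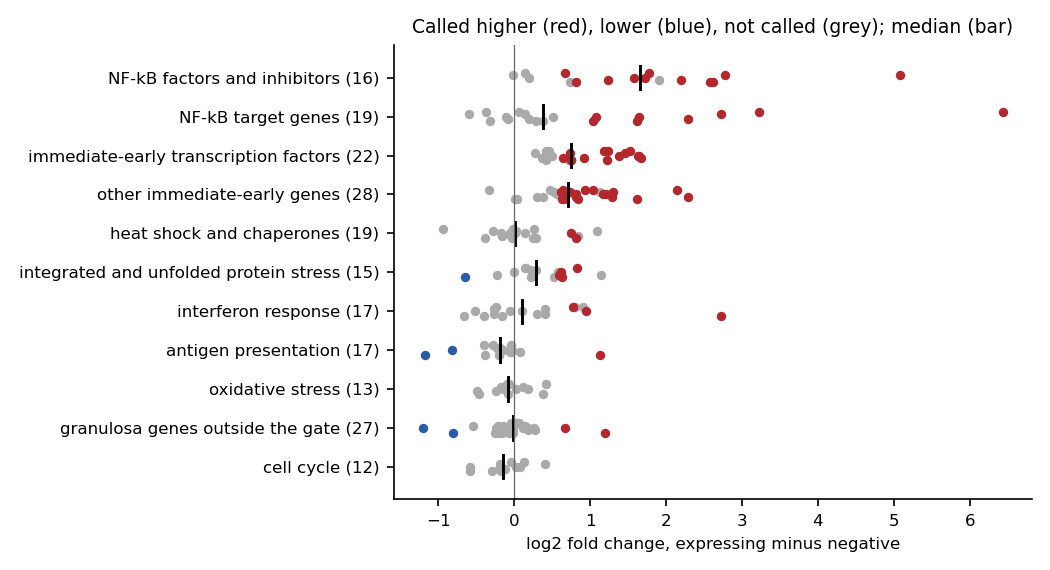
Log2 fold change between chemokine-expressing and chemokine-negative granulosa cells with the library as a block (x axis) for each tested gene of 11 lists, with the number tested in brackets. Red points were called higher, blue points lower and grey points not called, and the bar is the median, which lies at 1.65 for NF-kB factors and inhibitors and at 0.01 for heat shock genes and chaperones.

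Interferon response genes gave 3 higher calls, Irf1 and Irgm1 among them, and 0 lower among 17 tested, with a median log2 fold change of 0.11 and 8 genes at an unadjusted p under 0.05. Irgm1, an interferon-induced GTPase, rose from 11.3 and 6.96 to 19.2 and 18.3 CPM. Isg15, a sensitive interferon target, was at 3.78 and 16.8 CPM against 7.26 and 23.8 and was not called. In antigen presentation, 1 of 17 genes was called higher (Nlrc5, the activator of class I genes) and 2 lower. Of these, Psmb8 fell from 23.5 and 98.9 to 16.1 and 49.6 CPM and H2-Ab1 fell from 4.07 and 24.8 to 2.52 and 9.16 CPM. B2m was at 1024 and 1048 CPM against 1348 and 1044 and was not called. Of 12 genes of the tissue factor and proteolysis list tested besides F3, edgeR called 0, with 3 at an unadjusted p under 0.05. EGF-like ligands and ovulation genes gave 1 call among 7, Cebpb. The list of RNA quality genes gave 1 call among 5, Neat1, a nuclear RNA, which was higher, and all 5 had an unadjusted p under 0.05 with the block.

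Of 27 tested granulosa identity genes that the gate did not use, 2 were called higher, 2 lower and 23 not, beside 2.65% and 0.678% of all genes. Their median log2 fold change was -0.02, and 7 had an unadjusted p under 0.05. Wt1, a transcription factor of the gonadal soma, stood at 578 and 646 CPM in the expressing cells and at 581 and 620 in the negative cells, and Gata4 stood at 123 and 134 against 113 and 142. Bmp2 rose from 48.8 and 15.9 to 102 and 49.6 CPM. Wnt4, which directs ovarian differentiation, was called on replicate 2, where it stood at 78.6 against 25.8 CPM, beside 38.1 and 36.9 in replicate 1, and it was not called in thinned cells or without the cells marked as doublets. Nr0b1, a nuclear receptor of steroidogenic tissue, fell from 19.5 and 20.4 to 7.55 and 10.7 CPM. Hsd17b1, an enzyme of oestradiol synthesis, was called lower on replicate 1 alone, with 14.5 against 29.6 CPM, and was at 8.40 against 6.96 CPM in replicate 2. Of 10 genes of the early granulosa substate, Calb1, a calcium-binding protein, was called, and it fell from 71.8 and 16.4 to 47.2 and 6.87 CPM. Of the gate genes, given as a description, Kctd14 was at 419 and 402 CPM against 598 and 587 and Inha at 270 and 256 against 440 and 367. Foxl2 had a mean of 1.63 and 1.46 UMIs per thinned cell at 0 chemokine UMIs and 1.33 and 1.52 at 30 or more. The 7 gate genes together took a median of 0.22% and 0.17% of UMIs in the expressing cells, against 0.28% and 0.22% in the negative cells. Of 12 cell cycle genes tested edgeR called 0, with 1 at an unadjusted p under 0.05.

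By the naming rule, the 10 genes that fell most at 10 CPM or more had unlike functions. Pglyrp1, a peptidoglycan recognition protein, fell from 32.5 and 65.1 to 5.35 and 25.2 CPM. Its log2 fold change was -1.89 ± 0.21 (SE of the blocked fit), with -2.56 and -1.36 within replicates 1 and 2. Ptgr1, a prostaglandin reductase, fell from 13.1 and 19.4 to 4.09 and 10.7 CPM, and Fabp5, a fatty acid binding protein, fell from 11.6 and 22.4 to 5.35 and 9.16 CPM. The others were Krt19, Prss36, Nr0b1, G0s2, Tlcd2, Xkr8 and Ackr3, with log2 fold changes of -1.27 to -1.01. In cells thinned to 4000 UMIs, 17 genes outside the choice were called lower with the block in place of 71. Pglyrp1 alone of these 10 was still called, G0s2 was not tested and the other 8 had edgeR adjusted p-values of 0.0682 to 0.637. The log2 fold changes of these 8 in thinned cells were -1.46 to -0.77. The calls of Asns, Calb1, Hsd17b1, H2-Ab1, Atf4, Cd14, Serpina3g and Irgm1 were lost in thinned cells too (edgeR adjusted p 0.0599 to 0.965). Log2 fold changes there were -0.82 to -0.15 for Asns, Calb1, Hsd17b1 and H2-Ab1 and 0.50 to 1.37 for the others.

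A kappaB match in the 250 bases before the start was present in 45 of the 218 genes called higher that had a promoter entry (20.6%), in 6 of 52 called lower (11.5%) and in 908 of 8460 tested genes (10.7%). The AP-1 motif was present in 5.96% of those called higher, in 9 of 52 called lower (17.3%) and in 4.93% of all tested, and the ISRE core in 3.67%, 0% and 2.97%. The genes called higher with a kappaB match include Tnfaip3, which passed the filter on low counts through the expressing cells alone. Genes of that kind were not left out of these shares, and the shares were not tested.

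Immune and neutrophil markers were near 0 in both groups, whereas mesothelial and erythroid markers were not. The 12 macrophage and immune markers together held 15 and 7 UMIs in the expressing cells (4.71 and 5.14 CPM, 6 and 3 of 12 genes seen, Cd68 the most abundant in both) and 20 and 8 in the negative cells (5.96 and 3.95 CPM), against 18060 and 17310 CPM in immune-gated cells. Ptprc, which defines leukocytes, was at 0 in all 4 sums. The 10 neutrophil markers held 8 and 2 UMIs against 8 and 3. Mesothelial markers summed to 605 and 1305 CPM against 705 and 1699, mostly Lgals7 (481 and 992 against 570 and 1340 CPM), beside 4321 and 4170 CPM in mesothelial-gated cells, with Upk1b at 0 in all 4 sums, and 1 of 5 tested was called, Krt19, which was lower. Interstitial markers summed to 205 and 301 CPM against 183 and 256, mostly Col3a1, endothelial markers to 26.1 and 49.9 against 19.1 and 43.5, mostly Kdr, perivascular markers to 28.6 and 52.1 against 22.96 and 50.9, mostly Acta2, and germ cell markers to 119 and 160 against 99.6 and 186, mostly Dppa3. In these last 4 lists, edgeR called 0 of 4, 2, 3 and 8 genes tested, and 1, 1, 1 and 0 had an unadjusted p under 0.05. Erythroid markers summed to 2157 and 50.6 CPM against 27.4 and 3293, and 2 expressing cells of replicate 1 and 1 negative cell of replicate 2 held 6785 and 6570 of these UMIs. The doublet caller marked 1 of 294 and 0 of 96 expressing cells and 0 of 390 and 2 of 232 negative cells. Without these 3 cells, 195 genes were called higher and 32 lower, and 11 of 16 NF-kB factors and inhibitors and 12 of 22 immediate-early transcription factors were called higher. The 11 include Tnfaip3 and Bcl3, which passed the filter on low counts in the main fit through the expressing cells alone. Among the genes named, Nr4a2, Nlrc5, Irgm1, Cebpb, Hsd17b1, Xkr8, H2-Ab1 and Prss36 then had edgeR adjusted p-values of 0.0582 to 0.118 with the block, and the calls of Sdf2l1 and Wnt4 were lost too. Of 4 erythroid markers then tested, 1 was called lower. The part of these transcripts in the results was not tested, except that leaving out cells with any UMI of 7 immune genes gave 253 higher and 56 lower calls.

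Interstitial cells offered a second cell type in which to look at the same genes. Interstitial-gated cells with 3 or more chemokine UMIs (253 and 158) were compared in the same way with those with 0 (988 and 2147). With the library as a block, 360 of 11599 genes were called higher there (3.10%) and 67 lower (0.578%). Of 271 granulosa genes called higher and tested in both, 118 were called higher in interstitial cells too, which is 43.5% of the granulosa genes and 32.8% of the interstitial genes. These counts were not limited to genes outside the choice. Cxcl1, Cxcl10 and Cxcl5 UMIs split both cell types, so a shared call of these genes is by construction. Nfkbia stood at 808 and 1207 CPM in interstitial cells with chemokine UMIs and at 174 and 116 in those without. Irf1 stood at 406 and 477 against 71.2 and 34.5, and Tnfaip3 at 56.9 and 75.2 against 5.38 and 2.92.

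The difference of the contrasts between granulosa and interstitial cells was tested over 11808 genes. Without the block, 0 genes were called (0%), with 359 at an unadjusted p under 0.05 and 10 called by DESeq2. With the library as a block, the contrast was larger in granulosa cells for 9 genes (0.0762%) and smaller for 92 (0.779%). Outside the genes that chose or marked the cells, it was larger for 9 and smaller for 85 of 11773. Of 17 NF-kB factors and inhibitors tested, edgeR called 0 for a difference with the block (3 at an unadjusted p under 0.05) and 0 without it (1). The difference in log2 fold change was -0.02 ± 0.28 for Nfkbia (SE, edgeR adjusted p = 1), 1.03 ± 0.49 for Tnfaip3 (adjusted p = 0.558) and -0.42 ± 0.28 for Irf1 (adjusted p = 0.752). Vcam1 was called as larger in granulosa cells (4.63 ± 1.01), where the negative cells held 0 and 1 UMIs, so that its size depends on the prior count of the fit. Atf3 was called as smaller in granulosa cells (-1.81 ± 0.25), since interstitial cells with chemokine UMIs had 89.4 and 89.7 CPM against 20.6 and 10.6 without. Of the granulosa identity genes, 9 of 27 tested were called as smaller. Amhr2, the receptor of anti-Müllerian hormone, was at 97.2 and 50.2 CPM in interstitial cells with chemokine UMIs and at 30.4 and 20.2 in those without, and at 501 and 523 against 609 and 613 CPM in the granulosa groups. The part of granulosa transcripts in the chemokine UMIs of interstitial-gated cells was not tested.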

How the data were processed

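The authors deposited filtered UMI counts per gene and cell for 2 libraries, made with Cell Ranger 3.0.2 on GRCm38 according to the submitters' processing notes. The labels and the study's methods name different kit versions. Cells under 500 genes or above 10% mitochondrial UMIs were removed, and cell classes were gated on the counts with scanpy 1.11.5. The members and the gene lists were chosen with earlier results of these data known. UMIs were summed per library and group and tested with edgeR 4.0.16 (quasi-likelihood test, filterByExpr, TMM, Benjamini-Hochberg adjustment). DESeq2 1.42.0, other filters, thresholds, depths and stress windows were tried as alternatives, and the steps were tested on simulated data.

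The design fixed for the comparison had no term for library. Both groups of cells come from the same libraries and animals, so that the library pairs them, and their deviations from the group means correlated at r = 0.373 over 11808 genes. A blocked fit, with a term for library, is therefore given beside it. The naming rule (per list, the 3 called genes of largest change, and the 10 highest and 10 lowest called genes over 1.5-fold in each library and at 10 CPM or more) gave no gene outside the choice without the block, and was applied to the blocked calls after the values were seen. CPM of the comparisons use TMM-normalized library sizes, and levels by gate and of marker lists use total UMIs. Doublets were marked with Scrublet at the lower of the automatic thresholds (0.225). Libraries are the replicates. The blocked fit takes out the difference between libraries and has 1 residual degree of freedom per gene. Its p-values therefore rest mainly on the spread shared across genes, not on how well the 2 libraries agree for a gene. Of the blocked calls, 2 had opposite signs in the libraries.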

Additional observations from a re-analysis of the deposited data

Results flagged for a closer look

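Chemokine UMIs were also present in cells outside the comparisons. Of granulosa-gated cells with 3 or more growing-follicle genes, 26.9% of 818 in replicate 1 and 19.9% of 191 in replicate 2 had 3 or more UMIs of Cxcl1, Cxcl10 and Cxcl5. Of cells in no gate, 35.5% of 138 and 16.1% of 174 did. Germ-gated cells gave 3.28% and 4.57% by the same count.

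The contrast between cells with and without chemokine UMIs differed between granulosa-gated and interstitial-gated cells for 23 listed genes, by edgeR's test of the difference with the library as a block and with the same sign in both libraries. For the 6 largest, the difference (granulosa minus interstitial, log2) was -2.70 for Calb1, -1.88 for Ddit4, -1.92 for Irx5, -2.35 for Isg15, -2.68 for Tnfaip2 and 4.63 for Vcam1. Without the block, edgeR called none of these 6. Several rest on few transcripts, such as Tnfaip2, at 3.07 and 23.8 CPM in the chemokine-expressing granulosa cells and 3.14 and 22.7 CPM in the negative cells. Irx5 was among the 9 granulosa identity genes, of 27 tested, called as smaller in granulosa cells. Calb1 is a gene of the early granulosa substate. The part of granulosa transcripts in the interstitial-gated cells was not tested.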

How the results depend on the processing

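With the library as a replicate block, 358 genes were called between chemokine-expressing and chemokine-negative granulosa cells, against 1 without it. Without the block, the count was 12 in cells thinned to 4000 UMIs, 10 at 5 or more chemokine UMIs, 78 against negative cells with no limit on growing-follicle genes, 9 in cells with 5000 to 20000 UMIs, 0 in cells low in stress transcripts (169 at an unadjusted p under 0.05), 9 in cells with 2 to 4% stress transcripts, 116 with no filter on low counts and 27 with DESeq2. With the block, it was 171 thinned, 198 at 2 or more chemokine UMIs, 1619 with no limit on growing-follicle genes, 227 without marked doublets, 58 in cells low in stress transcripts (4 expressing cells in replicate 2, under the minimum of 20, so no gene result rests on it), 222 in the 2 to 4% window, 46 with DESeq2 and 127 at a 2-fold minimum. Leaving out a library left no test, and 277 to 308 of the 358 calls had the same direction and 1.5-fold in the other library (1 to 1 without the block).

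For the difference from interstitial cells, the block gave 101 calls (9 larger and 85 smaller outside the genes that chose or marked the cells). Without the block there were 0, where no filter gave 98 and DESeq2 10. With the block, thinning gave 28, no filter 162 and DESeq2 39, and 88 to 101 calls kept their direction and size in the other library (0 to 0 without the block). The share of granulosa-gated cells, 17.6%, was 13.6% thinned, 19.8% at 2 and 14.7% at 5 or more UMIs, and 17.0% to 18.2% by library. Hsd17b1 reversed without replicate 1 (log2 fold change 0.26, against -1.02 without replicate 2). Ackr3 changed sign in cells low in stress transcripts without the block (0.11, against -0.21 with it). Replicate 2 held only 4 expressing cells there, so no result on Ackr3 rests on it. The cause of these shifts was not tested. The 2% to 4% window and the blocked alternatives were chosen after seeing the data. The planned comparison of Cxcl10-led with Cxcl1- or Cxcl5-led cells was not run, because replicate 2 held 8 Cxcl10-led cells, under the minimum of 20. With 2 libraries, depth limits genes at a few UMIs, such as Tnf and Ccl2.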
